A study of Mus musculus with 9 samples.

Results

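The genes described here build the T cell receptor (TCR) complex and carry its signal from the membrane to the nucleus. They are 34 genes chosen by name for their function, out of 22136 genes with estimated counts. The rule used no measured value, but earlier results of these data were known when the genes were chosen. All 34 were found in the files, and all 34 of 34 passed the filter on low counts that left 13178 genes for testing. The libraries were bulk RNA-seq of CD45+ cells, the immune cells of the tumour, sorted from subcutaneous YUMM 2.1 melanomas. YUMM 2.1 is an established mouse melanoma line, and the hosts of every group were immunocompetent C57BL/6J mice. The groups were mice given anti-B7-H3, which targets an immune checkpoint protein related to the PD1 ligands, mice given anti-PD1, which targets the checkpoint receptor PD1, and mice given an isotype control (IgG). Each of the 3 groups had 3 libraries, and dosing began at tumour volumes of 20 to 50 mm3. A combination of both antibodies named in the study's design was not analysed here. The labels do not say whether replicates came from separate animals, so p-values measure only the spread between these samples.

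A conventional T cell recognises a peptide on an MHC molecule through the alpha and beta chains of its receptor. The chains themselves have no signalling tail, and the CD3 gamma, delta, epsilon and zeta chains carry the signal. CD4 and CD8 bring the kinase Lck to the complex, Lck phosphorylates the CD3 tails, Zap70 docks there and phosphorylates the adaptors Lat and Lcp2 (SLP-76), and these gather the enzymes that open the calcium, Ras and NF-kB pathways. In tumours the receptor complex is the part of the T cell that senses tumour antigen, and PD1 dampens its proximal signal.

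The libraries held between 14487012 and 31533106 estimated counts, and the 34 genes had between 234 and 33485 counts in a library, so counting error was small for each of them. IgG 2 stood apart on the first principal component (35.9% of the variance) and had 1896 of the tested genes at 0. Anti-PD1 3 had 1248 at 0, and the other 7 libraries between 224 and 822. Ptprc, which encodes CD45, lay between 1718 and 2913 CPM (CPM values are counts relative to the library total, scaled by TMM factors) in the 9 libraries. The genes of the constant chains and CD3 chains were expressed in every library, so T cell RNA was present in all 9.

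None of the 34 genes passed the test in any of the 3 comparisons (edgeR's quasi-likelihood test, Benjamini-Hochberg adjusted p under 0.05), while most of them had lower levels in both antibody groups than in IgG. Against IgG, 29 of 34 log2 fold changes were negative with anti-B7-H3, at a median of -0.24, and 29 of 34 with anti-PD1, at a median of -0.33. Over all tested genes 6318 and 6951 of 13178 were negative, with medians of 0.02 and -0.04. Both comparisons use the same IgG libraries, so the 2 sets of values are not independent. Between the antibodies 14 of 34 were negative, at a median of 0.02 for anti-B7-H3 against anti-PD1, beside 0.04 for all genes. In bulk RNA a smaller share of T cells and less of these RNAs per T cell cannot be told apart.

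With anti-B7-H3 against IgG, edgeR called 0 of 34 genes beside 0.85% of all tested genes (0.827% higher and 0.0228% lower), and DESeq2 and limma-voom called 0 of 34 as well. At an unadjusted p under 0.05 (edgeR) there were 5 of 34, all lower (Trac, Ubash3a, Cd5, Cd2 and Bcl11b), beside 8.81% of all genes. In 5 of 34 genes every anti-B7-H3 library lay below every IgG library, beside 5.49% of all genes, and in 2 (Vav1 and Bcl10) above, beside 9.96%. With anti-PD1 against IgG, edgeR, DESeq2 and limma-voom each called 0 of 34, where edgeR called 1.74% of all genes (1.72% higher and 0.0152% lower). At an unadjusted p under 0.05 (edgeR) there were 4 (Themis, Skap1, Lck and Ubash3a), all lower, beside 10.9%. The groups did not overlap in 5 of 34 (Trbc2, Cd3d, Lck, Skap1 and Sla2), all lower, beside 6.52% lower and 9.99% higher over all genes. For anti-B7-H3 against anti-PD1, the 3 tools again called 0 of 34, and the edgeR background was 0%, with 15 genes of all tested called by DESeq2 and 2 by limma-voom with quality weights. A single gene, Cd8a, had an unadjusted p under 0.05 (edgeR), beside 3.23% of all genes. The groups did not overlap in 6 of 34, with Trbc1, Cd8a, Skap1, Themis and Vav1 higher in anti-B7-H3 (background 7.13%) and Nfatc2 lower (background 6.4%). Across the 34 genes the 95% interval of a fold change reached a median of 0.53 on the log2 scale to either side before adjustment, and larger values, such as -0.90 for Themis with anti-PD1 against IgG, were not called after it.

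**Figure D1:**
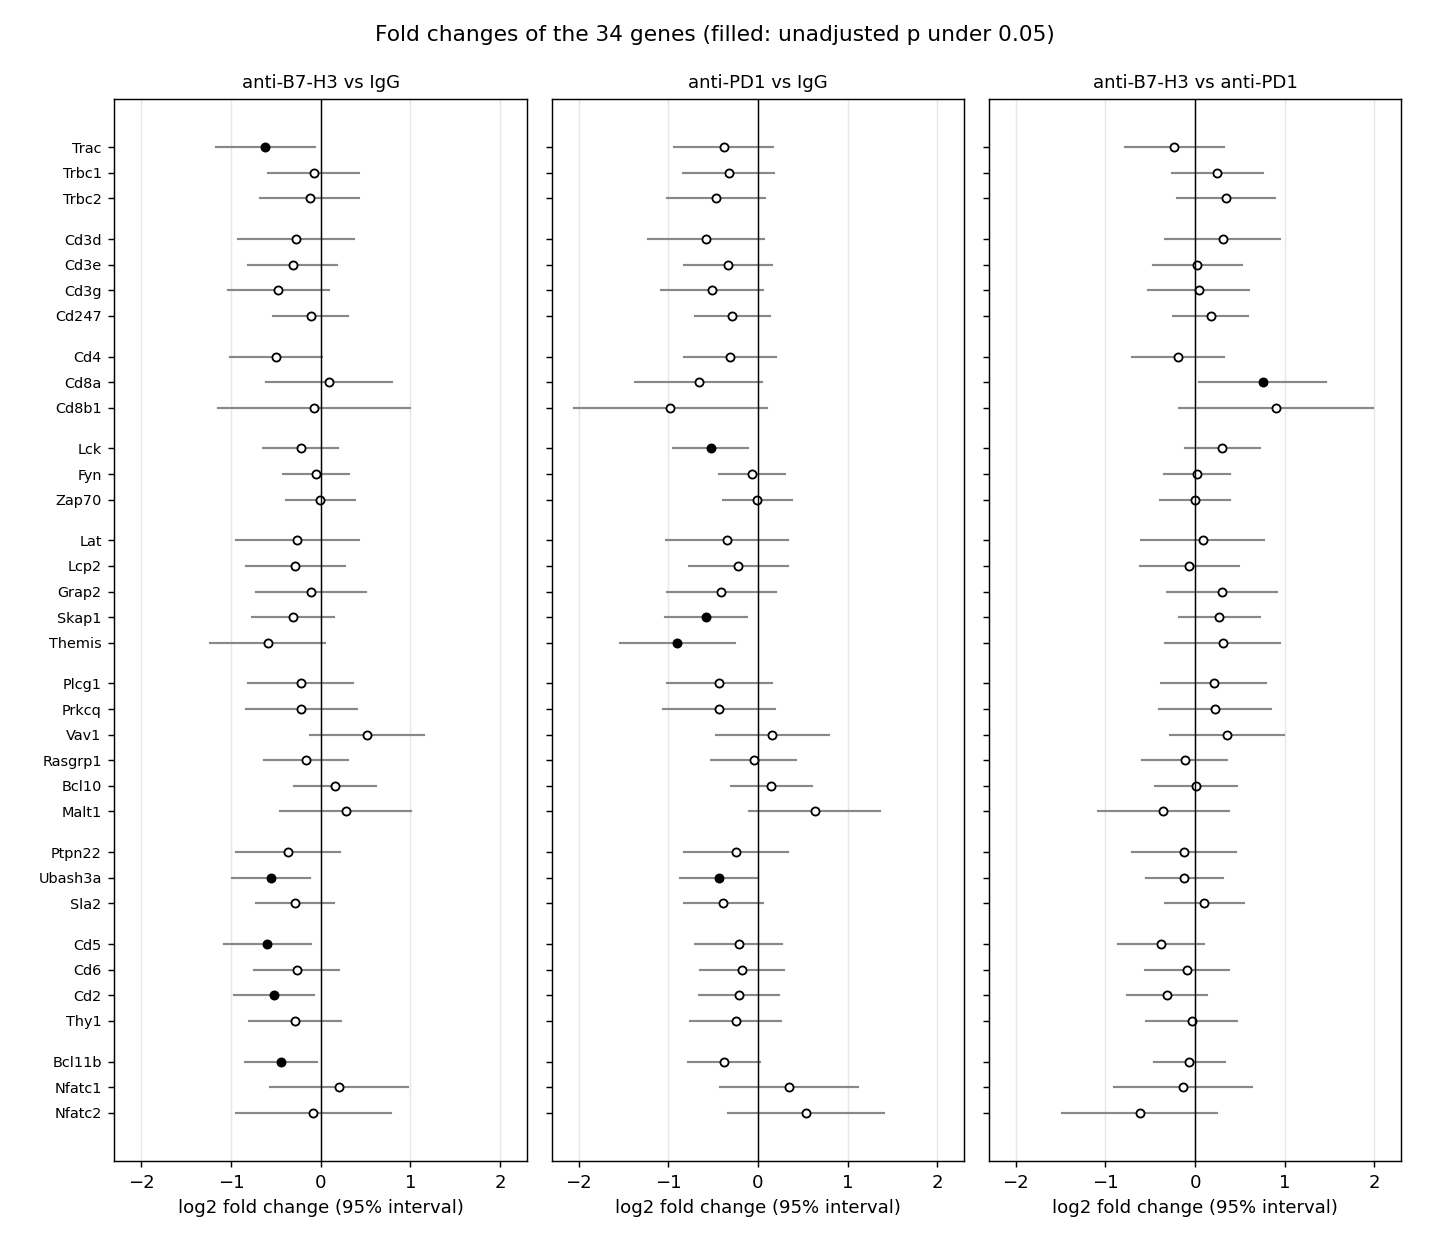
Log2 fold change (x axis) with its 95% interval from edgeR for each of the 34 genes (rows, grouped by role), in 3 panels for anti-B7-H3 against IgG, anti-PD1 against IgG and anti-B7-H3 against anti-PD1. Filled points have an unadjusted p under 0.05, namely 5 in the first panel, 4 in the next and 1 in the last, and the points of the first 2 panels lie mostly left of 0.

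The genes were divided into 24 listed as T cell genes and 10 listed as broadly expressed. The 10 were Lcp2, Fyn, Plcg1, Bcl10, Malt1, Ptpn22, Vav1, Nfatc1, Nfatc2 and Rasgrp1. The 24 are not confined to T cells, since NK cells share Cd2 and some dendritic cells make Cd8a. The split therefore does not separate T cell RNA from that of other cells. Among the 24, 23 log2 fold changes were negative with anti-B7-H3 against IgG, at a median of -0.28, and 24 with anti-PD1 against IgG, at a median of -0.38. Among the 10, 6 and 5 were negative, with medians of -0.07 and 0.05. Library by library, 28 of the 34 genes had their highest level in an IgG library, 7 in IgG 1, 10 in IgG 2 and 11 in IgG 3. The 3 anti-B7-H3 libraries held 3, 0 and 0 of the highest levels, and the anti-PD1 libraries 1 each. The lowest levels were spread over 7, 0 and 8 genes in the anti-B7-H3 libraries, 6, 5 and 3 in the anti-PD1 libraries and 0, 2 and 3 in the IgG libraries. Highest and lowest levels were not counted over all tested genes, so these counts have no background to be read against.

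**Figure D2:**
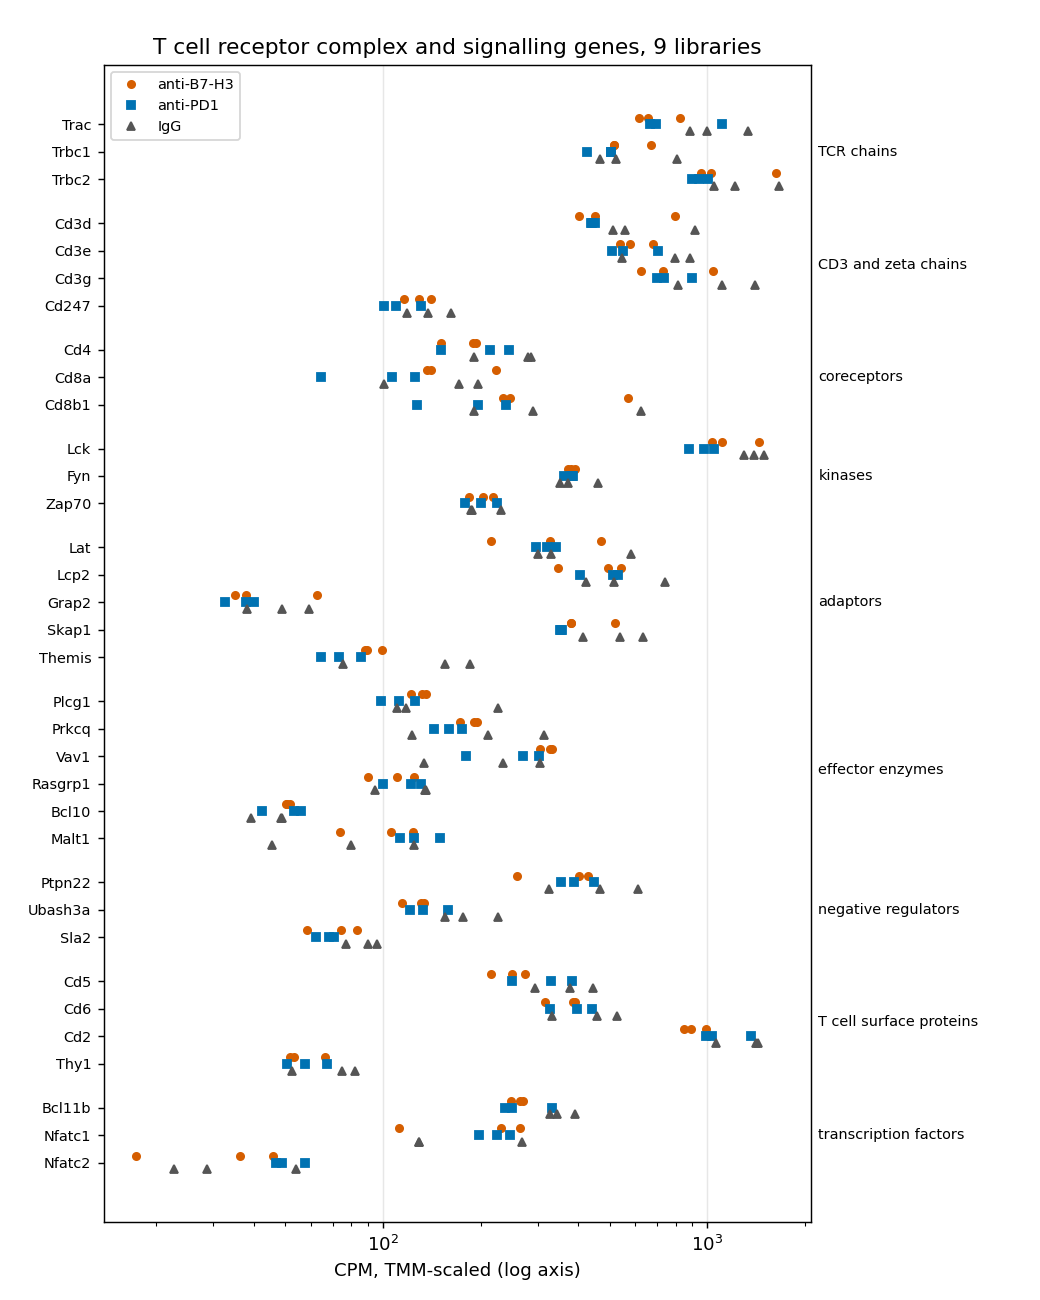
Level of each of the 34 genes in each of the 9 libraries, in CPM on a log axis, with 1 row per gene grouped by role and 1 symbol per group. IgG triangles mark the highest level in 28 of the 34 rows, a count without a background over all genes, and the groups overlap in most rows.

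The alpha chain of the receptor has 1 constant gene, Trac (chromosome 14, 54220521 to 54224206, GRCm38), and the beta chain has 2 alternative ones, Trbc1 and Trbc2, side by side on chromosome 6. Trac stood at 826, 659 and 617 CPM in anti-B7-H3, at 695, 667 and 1109 in anti-PD1, and at 884, 1339 and 996 in IgG. All 3 anti-B7-H3 libraries lay below all IgG libraries, while anti-PD1 3 lay inside the IgG range. The log2 fold change was -0.62 ± 0.25 (SE) with anti-B7-H3 against IgG and -0.38 ± 0.25 with anti-PD1 against IgG, and neither passed (edgeR adjusted p = 0.510 and 0.659).

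Trbc1 stood at 670.2, 517 and 516 CPM in anti-B7-H3, 504, 505 and 425 in anti-PD1, and 468, 523 and 807 in IgG. Trbc2 stood at 1623, 1025 and 955 CPM in anti-B7-H3, 939.9, 897 and 1003 in anti-PD1, and 1045, 1215 and 1664 in IgG. The anti-PD1 libraries were the narrowest group for both genes and lay wholly below IgG for Trbc2, whereas anti-B7-H3 1 and IgG 3 were high for both. With anti-PD1 against IgG, the log2 fold changes were -0.33 ± 0.23 for Trbc1 and -0.47 ± 0.25 for Trbc2 (edgeR adjusted p = 0.690 and 0.547). With anti-B7-H3 against IgG they were -0.08 ± 0.23 and -0.12 ± 0.25 (edgeR adjusted p = 0.969 and 0.947).

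The beta constant genes (Trbc1 at 41538218 to 41539881, Trbc2 at 41546730 to 41548352, both on the forward strand of chromosome 6) are near copies, so how reads were divided between them is uncertain. Their annotated coding sequences have 521 bases each, of which 23 differ (95.6% identical), and the first 259 bases are identical. The stretch below, bases 363 to 521, is shown because it holds 22 of the 23 differences and therefore most of the letters by which a read can be told to belong to one gene. Capitals mark the differing bases (GENCODE M21, GRCm38, forward strand).
Trbc1: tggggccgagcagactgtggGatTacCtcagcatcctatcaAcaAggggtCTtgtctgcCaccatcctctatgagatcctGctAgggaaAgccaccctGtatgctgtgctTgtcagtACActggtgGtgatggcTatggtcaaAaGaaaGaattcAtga
Trbc2: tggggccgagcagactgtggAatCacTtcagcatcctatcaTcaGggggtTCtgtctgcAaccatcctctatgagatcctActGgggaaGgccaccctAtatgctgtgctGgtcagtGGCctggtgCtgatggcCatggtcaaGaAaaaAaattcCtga
The ratio of Trbc1 to Trbc2 counts was 0.413, 0.504 and 0.540 in anti-B7-H3, 0.536, 0.563 and 0.424 in anti-PD1, and 0.448, 0.430 and 0.485 in IgG. The groups overlapped, and the exact two-sided permutation p was 0.6 for anti-B7-H3 against IgG, 0.4 for anti-PD1 against IgG and 0.6 between the antibodies, where 3 against 3 libraries cannot give less than 0.1.

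The CD3 chains carry the signalling motifs of the receptor, and Cd3g, Cd3d and Cd3e lie in a row on chromosome 9 (Cd3g at 44969572 to 44980431, Cd3d at 44981786 to 44987339, Cd3e at 44998740 to 45009627, GRCm38). Cd3d stood at 793, 450.1 and 403 CPM in anti-B7-H3, 452, 438 and 443 in anti-PD1, and 512, 559 and 919 in IgG. Every anti-PD1 library lay below every IgG library, and anti-B7-H3 1 reached into the IgG range. Its log2 fold change was -0.27 ± 0.29 with anti-B7-H3 against IgG and -0.58 ± 0.29 with anti-PD1 against IgG (edgeR adjusted p = 0.878 and 0.513).

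Cd3e stood at 679, 579.6 and 537 CPM in anti-B7-H3, 550.0, 510.2 and 705 in anti-PD1, and 545, 797 and 885 in IgG. Cd3g stood at 1041, 731 and 626 CPM in anti-B7-H3, 701, 737 and 895 in anti-PD1, and 810.5, 1109 and 1406 in IgG. For both genes IgG 1 was the low control library and fell among the antibody libraries. With anti-B7-H3 against IgG, Cd3e and Cd3g had log2 fold changes of -0.31 ± 0.22 and -0.47 ± 0.26 (edgeR adjusted p = 0.793 and 0.678). With anti-PD1 against IgG they had -0.33 ± 0.22 and -0.51 ± 0.26 (edgeR adjusted p = 0.668 and 0.513).

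Cd247, on chromosome 1, encodes the zeta chain, which has the most signalling motifs of the complex. It stood at 141, 129.6 and 116 CPM in anti-B7-H3, 110.1, 101 and 131 in anti-PD1, and 118, 137 and 162 in IgG, and the groups overlapped. Its log2 fold changes against IgG were -0.11 ± 0.19 for anti-B7-H3 and -0.29 ± 0.19 for anti-PD1 (edgeR adjusted p = 0.933 and 0.662).

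In CPM the receptor genes had like orders of the libraries. Within the anti-B7-H3 group, replicate 1 was the highest and replicate 3 the lowest for all 7 constant, CD3 and zeta genes. IgG 3 was the highest of all 9 libraries for 6 of them, all but Trac. The deposited TPM values, which divide counts by transcript length, did not keep this order. In TPM anti-B7-H3 1 was the lowest of its group for Trac, Trbc1, Cd3e and Cd247, and the highest for Trbc2 and Cd3d. IgG 3 stayed the highest library in TPM for Trbc1, Trbc2 and Cd3d, while IgG 2 was the highest for Trac, Cd3e, Cd3g and Cd247. The summed level of Cd3d, Cd3e and Cd3g was 2513, 1761 and 1566 CPM in anti-B7-H3, 1702, 1685 and 2043 in anti-PD1, and 1867, 2465 and 3211 in IgG. Anti-B7-H3 1 also carried the highest summed level of 9 B cell markers, 548 CPM beside 28.5 to 147 in the other 8 libraries, and IgG 3 the highest of 7 erythroid markers, 435 CPM beside 2.06 to 70.3. The part of these cells in the values of both libraries was not tested.

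The promoters of the 3 neighbouring CD3 genes (RefSeq, GRCm38.p6, 250 bases before to 50 after the start) are shown because these genes share 1 locus. Cd3d is read from the forward strand (chr9:44981536-44981835), and Cd3g (chr9:44980382-44980681) and Cd3e (chr9:45009562-45009861) from the reverse strand, so Cd3d and Cd3g start 1355 bases apart and point away from each other. Capitals mark the letters AGGAAG on either strand (CTTCCT on the reverse). They are a longer form of GGAA, the core that transcription factors of the ETS family bind.
Cd3d: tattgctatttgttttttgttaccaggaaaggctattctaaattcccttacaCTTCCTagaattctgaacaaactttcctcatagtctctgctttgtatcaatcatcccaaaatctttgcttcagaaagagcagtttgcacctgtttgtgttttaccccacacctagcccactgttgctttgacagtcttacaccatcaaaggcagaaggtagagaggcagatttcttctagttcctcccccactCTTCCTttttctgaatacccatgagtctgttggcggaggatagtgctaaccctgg
Cd3g: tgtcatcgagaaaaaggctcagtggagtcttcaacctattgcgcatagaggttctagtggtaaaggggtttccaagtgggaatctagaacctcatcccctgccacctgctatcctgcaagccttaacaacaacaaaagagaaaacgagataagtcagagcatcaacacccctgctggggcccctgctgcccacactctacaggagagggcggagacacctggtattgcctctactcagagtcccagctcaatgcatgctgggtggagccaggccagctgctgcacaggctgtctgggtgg
Cd3e: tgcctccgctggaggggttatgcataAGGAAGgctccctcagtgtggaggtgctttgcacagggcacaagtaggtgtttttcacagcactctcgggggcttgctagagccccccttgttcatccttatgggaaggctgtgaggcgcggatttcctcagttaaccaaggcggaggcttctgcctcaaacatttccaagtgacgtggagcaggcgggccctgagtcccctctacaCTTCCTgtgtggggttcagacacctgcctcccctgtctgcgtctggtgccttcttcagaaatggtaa
Cd3d and Cd3e each hold the letters AGGAAG or CTTCCT 2 times and Cd3g not at all. The shorter core GGAA was not counted, and it does occur in Cd3g. Promoters of 23 of the 34 genes could be matched by symbol, 29 promoters in all, and 18 of the 29 (62.1%), from 14 genes, hold AGGAAG or CTTCCT, beside 35.4% of the 32851 promoters of the same length in the table. The other motifs were searched on both strands in the same way. The E-box CAGCTG was in 13.8% of the 29 and 16.3% of all. The RUNX letters TGTGGT were in 17.2% and 16.8%. The TCF/LEF letters CTTTGA were in 20.7% and 16%. The GATA letters AGATAA were in 10.3% and 11.2%. The TATA box letters TATAAA were in 10.3% and 13.6%. The GC box letters GGGCGG were in 34.5% and 35.7%. Matches of different motifs were counted separately even where they overlap. These are descriptions of letters in a window, and no binding was measured.

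CD4 and CD8 are the coreceptors that separate helper from cytotoxic T cells, CD4 binding MHC class II and the CD8 alpha and beta chains MHC class I. CD8 alpha is also made by some dendritic cells, the cDC1 type, whose 7 markers summed to 378 to 562 CPM in anti-B7-H3, 471 to 574 in anti-PD1 and 494 to 580 in IgG. Irf8 and Itgae, which other leukocytes also make, carried most of that sum, and Itgae averaged 159 CPM in anti-B7-H3 and 189 in anti-PD1, against 335 in IgG. Log2 fold changes were positive for 5 of the 7 markers with anti-B7-H3 against IgG (median 0.59) and for 6 of 7 with anti-PD1 against IgG (median 1.55), and in 3 and 5 of them every antibody library lay above every IgG library. In these comparisons edgeR and limma-voom called 0 of 7, 4 and 5 had an unadjusted p under 0.05 (edgeR), and DESeq2 called 1 (Itgae, lower) and 2 (Cadm1 and Wdfy4, higher). Their part in the Cd8a values was not tested. Cd4 stood at 194, 190.0 and 151 CPM in anti-B7-H3, 215, 151 and 245 in anti-PD1, and 279, 285 and 191 in IgG. IgG 3 was the low control, just under the highest anti-B7-H3 library. The log2 fold changes against IgG were -0.50 ± 0.23 for anti-B7-H3 and -0.31 ± 0.23 for anti-PD1 (edgeR adjusted p = 0.583 and 0.718).

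Cd8a stood at 224, 137 and 140.3 CPM in anti-B7-H3, 64.7, 126 and 106 in anti-PD1, and 172, 101 and 197 in IgG. Every anti-B7-H3 library was above every anti-PD1 library, and both groups overlapped with IgG. The log2 fold change of anti-B7-H3 against anti-PD1 was 0.75 ± 0.32 (edgeR adjusted p = 1.00, unadjusted p = 0.0388). Against IgG it was 0.09 ± 0.32 for anti-B7-H3 and -0.66 ± 0.32 for anti-PD1 (edgeR adjusted p = 0.972 and 0.492).

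Cd8b1 stood at 572, 246 and 235 CPM in anti-B7-H3, 128, 196 and 239 in anti-PD1, and 291, 190.4 and 627 in IgG. It was the most uneven of the coreceptors, with anti-B7-H3 1 and IgG 3 far above the rest of their own groups. The log2 fold change of anti-B7-H3 against anti-PD1 was 0.90 ± 0.48, with a 95% interval of -0.18 to 1.98 (edgeR adjusted p = 1.00). Against IgG it was -0.07 ± 0.48 for anti-B7-H3 and -0.98 ± 0.48 for anti-PD1 (edgeR adjusted p = 0.989 and 0.512). The Cd8b1 to Cd8a ratio was 2.55, 1.80 and 1.67 in anti-B7-H3, 1.98, 1.56 and 2.25 in anti-PD1, and 1.69, 1.89 and 3.18 in IgG, so anti-B7-H3 1 and IgG 3 also had the highest ratios.

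The Cd8a to Cd4 ratio set the CD8 lineage beside the CD4 lineage within each library and does not depend on the library's scaling. It was 1.15, 0.720 and 0.930 in anti-B7-H3, 0.301, 0.832 and 0.435 in anti-PD1, and 0.616, 0.353 and 1.03 in IgG. The highest ratio was in an anti-B7-H3 library and the lowest in an anti-PD1 library, but anti-PD1 2 lay inside the anti-B7-H3 range. The log2 difference between the antibodies was 0.94 (exact two-sided permutation p = 0.2, adjusted p = 0.75 over 45 tests of 15 ratios).

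**Figure D3:**
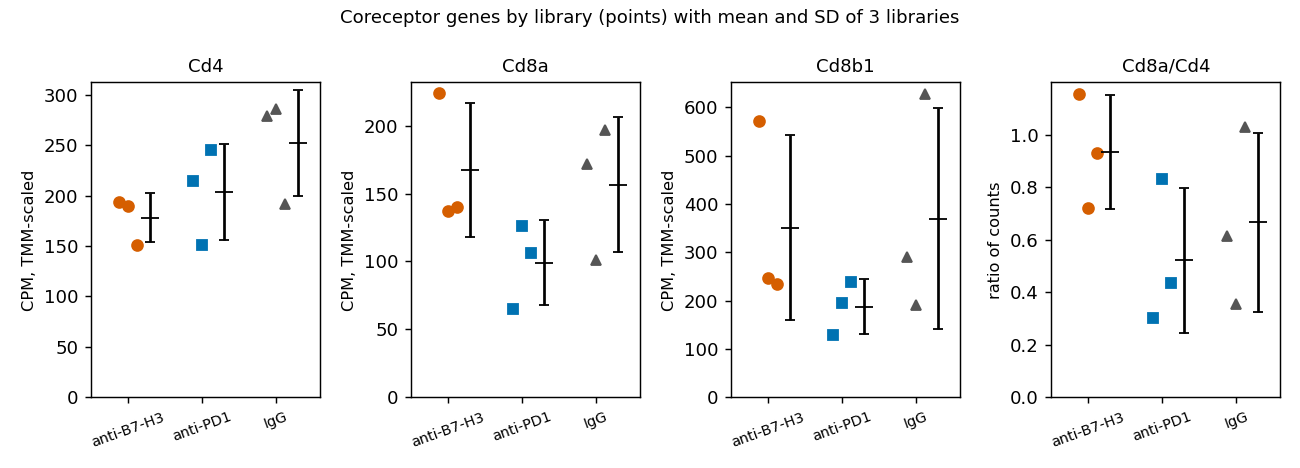
Cd4, Cd8a and Cd8b1 in CPM and the ratio of Cd8a to Cd4 counts, with 1 point per library and the mean ± SD of 3 libraries beside it, for anti-B7-H3, anti-PD1 and IgG. The 3 Cd8a points of anti-B7-H3, from 137 to 224 CPM, all lie above those of anti-PD1, from 64.7 to 126.

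The kinases act first after binding. Lck (chromosome 4, 129548344 to 129573641), which phosphorylates the CD3 tails, stood at 1445, 1111 and 1032 CPM in anti-B7-H3, 974, 879 and 1052 in anti-PD1, and 1302, 1493 and 1391 in IgG. The IgG libraries were close together and all above the anti-PD1 libraries, and anti-B7-H3 1 was among the IgG values. The log2 fold change was -0.53 ± 0.19 with anti-PD1 against IgG (edgeR adjusted p = 0.310) and -0.22 ± 0.19 with anti-B7-H3 against IgG (edgeR adjusted p = 0.848).

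Zap70, the kinase that docks on phosphorylated CD3 tails, was nearly level. It stood at 203, 218 and 184 CPM in anti-B7-H3, 225, 179 and 200.2 in anti-PD1, and 187, 188 and 232 in IgG, and the 3 group means were each 202 CPM. The 95% intervals of its log2 fold change ran from -0.39 to 0.38 in both comparisons with IgG (edgeR adjusted p = 0.999 and 0.998). Fyn, a relative of Lck that NK and other cells also use, ranged from 352 to 462 CPM over the 9 libraries with log2 fold changes of -0.05 and -0.07 against IgG. Per count of the CD3 genes, Zap70 was 0.0807 to 0.124 in anti-B7-H3, 0.0980 to 0.132 in anti-PD1 and 0.0722 to 0.1003 in IgG.

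Adaptors have no enzyme activity and hold the complex together. Lat, the membrane scaffold phosphorylated by Zap70, stood at 471, 327 and 216 CPM in anti-B7-H3, 296, 341 and 321 in anti-PD1, and 301, 329.9 and 584 in IgG. The groups overlapped, anti-B7-H3 1 and IgG 3 were again the high libraries, and the log2 fold changes against IgG were -0.26 ± 0.31 and -0.34 ± 0.31 (edgeR adjusted p = 0.901 and 0.767).

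Themis (chromosome 10, 28668360 to 28883818), an adaptor best known from thymic selection that tunes the receptor signal, had the lowest p of the 34 genes with anti-PD1. It stood at 87.9, 89.2 and 99.7 CPM in anti-B7-H3, 73.2, 85.9 and 64.5 in anti-PD1, and 156, 186 and 75.4 in IgG. IgG 1 and IgG 2 were above all antibody libraries, and IgG 3 lay among the anti-PD1 libraries. The log2 fold change was -0.90 ± 0.29 with anti-PD1 against IgG (edgeR adjusted p = 0.230) and -0.59 ± 0.29 with anti-B7-H3 against IgG (edgeR adjusted p = 0.608). The call depended on IgG 3: without it the anti-PD1 value was -1.20 (edgeR adjusted p = 0.0174). That setting removes the IgG library nearest to anti-PD1 and leaves IgG 1 and IgG 2, of which IgG 2 stood apart from the other libraries.

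Skap1, which couples the receptor to integrin adhesion, stood at 518, 381 and 381 CPM in anti-B7-H3, 351, 358 and 353 in anti-PD1, and 413, 537 and 634 in IgG. The anti-PD1 libraries were within a few CPM of each other and lay below every other library. Its log2 fold change was -0.58 ± 0.21 with anti-PD1 against IgG and -0.31 ± 0.21 with anti-B7-H3 against IgG (edgeR adjusted p = 0.303 and 0.766). The remaining adaptors overlapped between all groups: Lcp2, the SLP-76 scaffold, ranged from 346 to 740.4 CPM, and Grap2 (Gads), which bridges Lat and SLP-76, from 32.6 to 62.8 CPM. Their log2 fold changes were -0.28 and -0.11 with anti-B7-H3 against IgG, and -0.22 and -0.41 with anti-PD1 against IgG.

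The enzymes recruited by the adaptors did not share a direction. Plcg1, the phospholipase that releases calcium, had log2 fold changes of -0.22 for anti-B7-H3 and -0.43 for anti-PD1 against IgG. Prkcq, the protein kinase C of the NF-kB branch, had -0.21 and -0.43, and Rasgrp1, which activates Ras, had -0.16 and -0.05. Vav1, a signalling protein found in many leukocytes, had 0.52 ± 0.29 and 0.16 ± 0.29 (edgeR adjusted p = 0.692 and 0.898). Its anti-B7-H3 libraries, from 305 to 332 CPM, lay above both the anti-PD1 libraries, from 181 to 302, and the IgG libraries, from 134 to 305, by a narrow margin at the top of each. Bcl10 and Malt1 form the scaffold that leads to NF-kB. Bcl10 had log2 fold changes of 0.16 and 0.15 against IgG, and Malt1 of 0.28 and 0.63 (edgeR adjusted p for Malt1 = 0.901 and 0.535). IgG 1 was far above the other IgG libraries in Plcg1, 226 CPM beside 111 and 118, and in Prkcq, 314 beside 123 and 211.

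Among the negative regulators, Ubash3a (chromosome 17, 31207873 to 31246892), a phosphatase family protein that restrains signalling at Zap70, had a lower mean in both antibody groups than in IgG. It stood at 115, 134 and 131 CPM in anti-B7-H3, 121, 133 and 158 in anti-PD1, and 177, 226 and 155 in IgG. The anti-B7-H3 libraries lay below all IgG libraries, and anti-PD1 3 was just above IgG 3. The log2 fold change was -0.56 ± 0.20 for anti-B7-H3 and -0.44 ± 0.20 for anti-PD1 against IgG (edgeR adjusted p = 0.408 and 0.452). Sla2, an adaptor that promotes receptor downregulation, ranged from 58.4 to 83.0 CPM in anti-B7-H3, 62.2 to 70.7 in anti-PD1 and 77.0 to 95.8 in IgG. Ptpn22, a phosphatase that dephosphorylates Lck and Zap70, ranged from 259 to 429 CPM in anti-B7-H3, 354 to 447 in anti-PD1 and 326 to 614 in IgG. Their log2 fold changes were -0.29 and -0.37 with anti-B7-H3 against IgG, and -0.39 and -0.24 with anti-PD1 against IgG, with edgeR adjusted p-values from 0.526 to 0.806.

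Of the surface proteins, CD5 is a brake on the receptor whose level follows signal strength, and CD2 is an adhesion receptor shared with NK cells. Cd5 (chromosome 19) stood at 249.6, 274 and 215 CPM in anti-B7-H3, 329, 249.8 and 382 in anti-PD1, and 294, 444 and 376 in IgG. Cd2 (chromosome 3) stood at 994, 888 and 848 CPM in anti-B7-H3, 994, 1036 and 1363 in anti-PD1, and 1062, 1417 and 1436 in IgG. For both genes the anti-B7-H3 libraries lay below all IgG libraries, and the anti-PD1 libraries overlapped with IgG. With anti-B7-H3 against IgG the log2 fold changes were -0.59 ± 0.22 for Cd5 and -0.52 ± 0.20 for Cd2 (edgeR adjusted p = 0.440 and 0.478). With anti-PD1 against IgG they were -0.21 ± 0.22 and -0.21 ± 0.20 (edgeR adjusted p = 0.792 and 0.786). Cd6, a relative of Cd5, ranged from 315 to 527 CPM over the 9 libraries, and Thy1, the Thy-1 antigen of T cells, from 50.7 to 81.9 CPM. Their log2 fold changes against IgG lay between -0.29 and -0.17.

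Among the transcription factors, Bcl11b, which maintains T cell identity, ranged from 248 to 271 CPM in anti-B7-H3, 238 to 331 in anti-PD1 and 328 to 392 in IgG. The anti-B7-H3 libraries were tightly grouped below all IgG libraries, with a log2 fold change of -0.44 ± 0.18 (edgeR adjusted p = 0.510), and the value for anti-PD1 against IgG was -0.38 ± 0.18 (edgeR adjusted p = 0.489). Nfatc1 and Nfatc2, calcium-driven factors also made outside T cells, had positive values with anti-PD1, at 0.35 ± 0.35 and 0.54 ± 0.39 against IgG (edgeR adjusted p = 0.790 and 0.704). With anti-B7-H3 they had 0.21 ± 0.35 and -0.08 ± 0.39. Nfatc2 ranged from 17.4 to 45.9 CPM in anti-B7-H3 and from 46.7 to 57.6 in anti-PD1, with no overlap, and from 22.7 to 54.1 in IgG.

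Levels were also set against the summed counts of Cd3d, Cd3e and Cd3g in each library, which removes the library's scaling. Of 45 tests of 15 ratios between pairs of members, 4 had groups that did not overlap, all between the antibodies and each at the smallest p that 3 against 3 libraries allow (exact two-sided permutation p = 0.1, adjusted p = 0.75). Cd8a per CD3 count was 0.0891, 0.0777 and 0.0896 in anti-B7-H3, against 0.0380, 0.0748 and 0.0521 in anti-PD1. Lck per CD3 count was 0.575, 0.631 and 0.659 in anti-B7-H3, against 0.572, 0.521 and 0.515 in anti-PD1. Trac per CD3 count was 0.329, 0.374 and 0.394 in anti-B7-H3, against 0.408, 0.396 and 0.543 in anti-PD1, and the Nfatc1 to Nfatc2 ratio was 6.46, 5.04 and 7.27 against 4.29, 4.24 and 4.61. These separations depended in part on the measure. With the deposited TPM values in place of counts, the antibody groups overlapped for Lck and Trac per CD3. They stayed apart for Cd8a per CD3 and for Nfatc1 to Nfatc2. The TPM ratios were not tested. With a smallest p of 0.1, none of the 45 tests could pass at 0.05. Among single genes 15.5%, 16.5% and 13.5% of all tested did not overlap with anti-B7-H3 against IgG, anti-PD1 against IgG and between the antibodies.

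Compared per length, in the deposited TPM values, which divide counts by transcript length, the receptor chains led the set. Trac averaged 1876 TPM over the 9 libraries, Trbc2 1697, Cd3g 1239, Cd3e 842, Trbc1 813 and Cd3d 812, followed by Cd2 at 669, Lck at 520 and Fyn at 388. Trac was above Trbc2 in 5 of 9 libraries and Cd3e above Trbc1 in 3 of 9, so these neighbours did not keep an order, whereas Trbc2 was above Cd3g and Cd3g above Cd3e in 9 of 9. The zeta chain gene Cd247, at 201 TPM, was well under the other CD3 genes. At the low end stood Rasgrp1 at 31.1, Plcg1 at 21.9 and Nfatc2 at 9.0 TPM. The coreceptors averaged 321 TPM for Cd8b1, 128 for Cd8a and 92 for Cd4. Unlike in CPM, the summed TPM of the CD3 genes and of the TCR constant genes was lower in every antibody library than in every IgG library. Singly, Trbc2, Cd3d and Cd3g were lower in this way, while Trac, Trbc1, Cd3e and Cd247 overlapped. Such separations in TPM were not counted over all genes. Fitted to length-scaled TPM counts, edgeR called 0 of 34 genes against IgG, with medians of -0.22 for anti-B7-H3 and -0.29 for anti-PD1.

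**Figure D4:**
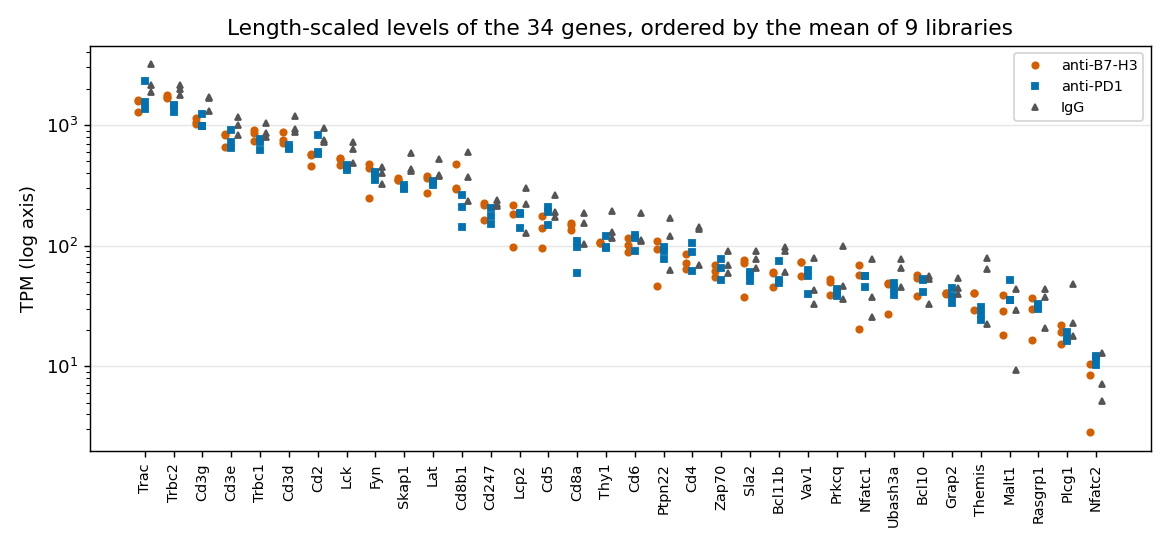
Deposited TPM (log axis) of the 34 genes in each of the 9 libraries, ordered from left to right by the mean over all libraries, with 1 symbol per group. Trac at the left averages 1876 TPM and Nfatc2 at the right 9.0.

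For 8 of the 34 genes the files list 1 transcript, and in 19 the leading transcript held over 90% of the gene's TPM on average. Where short transcripts are listed, TPM and counts give different pictures. Fyn-209, a fragment of 110 coding bases, held 50.8% to 61.8% of Fyn TPM but 2.04% to 3.26% of its counts, so the TPM of Fyn is largely that of a fragment. Lck-206, of 278 coding bases, held 12.6%, 20.0% and 21.2% of Lck TPM in anti-B7-H3, 23.0%, 28.7% and 16% in anti-PD1, and 9.51%, 15.2% and 10.6% in IgG, and at most 3.34% of the counts. Scaled by length in place of the summed counts, the Lck value for anti-PD1 against IgG was -0.34 in place of -0.53 (edgeR adjusted p = 0.546). The longest listed form of Lck, Lck-208, held the rest, and Lck-201 was listed at 0 in all 9 libraries.

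A further 57 genes of the pathway outside the set were all tested, and edgeR and limma-voom called 0 of 57 in each comparison, while DESeq2 called 1, Ctla4, with anti-PD1 against IgG. At an unadjusted p under 0.05 (edgeR) there were 2 higher and 2 lower with anti-B7-H3 against IgG, 4 higher and 1 lower with anti-PD1 against IgG, and 3 lower with anti-B7-H3 against anti-PD1. These were 7.02%, 8.77% and 5.26% of the 57, beside 8.81%, 10.9% and 3.23% of all genes, so the first 2 shares were below that of all genes. Their medians were 0.01, -0.06 and 0.01. The lowest p-values between the antibodies were those of the inhibitory receptor gene Ctla4 and the costimulatory genes Icos and Cd28. Ctla4 stood at 107, 263 and 259 CPM in anti-B7-H3, 469.8, 414 and 648 in anti-PD1, and 264, 303 and 155 in IgG. Every anti-PD1 library was above every other library, and the log2 fold change was -1.28 ± 0.36 for anti-B7-H3 against anti-PD1 and 1.09 ± 0.36 for anti-PD1 against IgG (edgeR adjusted p = 1.00 and 0.244).

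Icos stood at 58.5, 130.1 and 144 CPM in anti-B7-H3, 214, 231 and 474 in anti-PD1, and 228, 309 and 129.9 in IgG. The antibody groups did not overlap, with a log2 fold change of -1.46 ± 0.44 (edgeR adjusted p = 1.00). Cd28 had -0.74 ± 0.30 and Grb2, the adaptor that links Lat to Ras, -0.38 ± 0.20 in the same comparison, each with every anti-B7-H3 library lower. With anti-B7-H3 against IgG the smallest p-values were those of Dok2, an inhibitory adaptor also found in myeloid cells, at 0.68 ± 0.20, Fyb (ADAP), the partner of Skap1, at -0.67 ± 0.23, the phosphatase Ptpn6 (SHP-1) at 0.74 ± 0.30, and Icos at -1.001 ± 0.43 (edgeR adjusted p = 0.278, 0.384, 0.504 and 0.544). With anti-PD1 against IgG, Dok2 had 0.59 ± 0.20, the calcium channel gene Itpr1 -0.71 ± 0.29 and the adaptor Nck2 0.72 ± 0.31 (edgeR adjusted p = 0.274, 0.403 and 0.438).

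All 11 macrophage markers and all 6 tested neutrophil markers had positive log2 fold changes in both comparisons with IgG. For each of them every antibody library lay above every IgG library. The summed level of 11 macrophage markers was 1751 to 2712 CPM in anti-B7-H3, 1299 to 1918 in anti-PD1 and 123 to 314 in IgG, and 8 of the 11 passed the test as higher in each comparison with IgG (edgeR). That of 7 neutrophil markers was 271 to 483 CPM in anti-B7-H3, 647 to 930 in anti-PD1 and 79.4 to 105 in IgG, with 3 and 4 of 6 tested markers called higher. That of 9 NK markers was 2174 to 2731 CPM in anti-B7-H3, 1625 to 2357 in anti-PD1 and 495 to 1682 in IgG, with 0 of 9 called by edgeR in either comparison with IgG, 5 and 1 at an unadjusted p under 0.05 (edgeR), 1 (Tyrobp) and 0 called by DESeq2 and 0 by limma-voom. IgG 2, the library apart, was the lowest for NK markers, and no NK, macrophage or neutrophil marker was at 0 in all libraries. Markers of gamma-delta T cells, whose receptor uses the same CD3 chains, summed to 122 to 251 CPM in anti-B7-H3, 151 to 201 in anti-PD1 and 78.5 to 196 in IgG, with 0 of 4 tested markers called by edgeR, DESeq2 or limma-voom and 0 at an unadjusted p under 0.05. Of the melanoma markers, 1 (Dct) was at 0 in every library and the sum of 7 was at most 14.1 CPM. The part of the other cells' RNA in the lower T cell values was not tested.

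**Figure D5:**
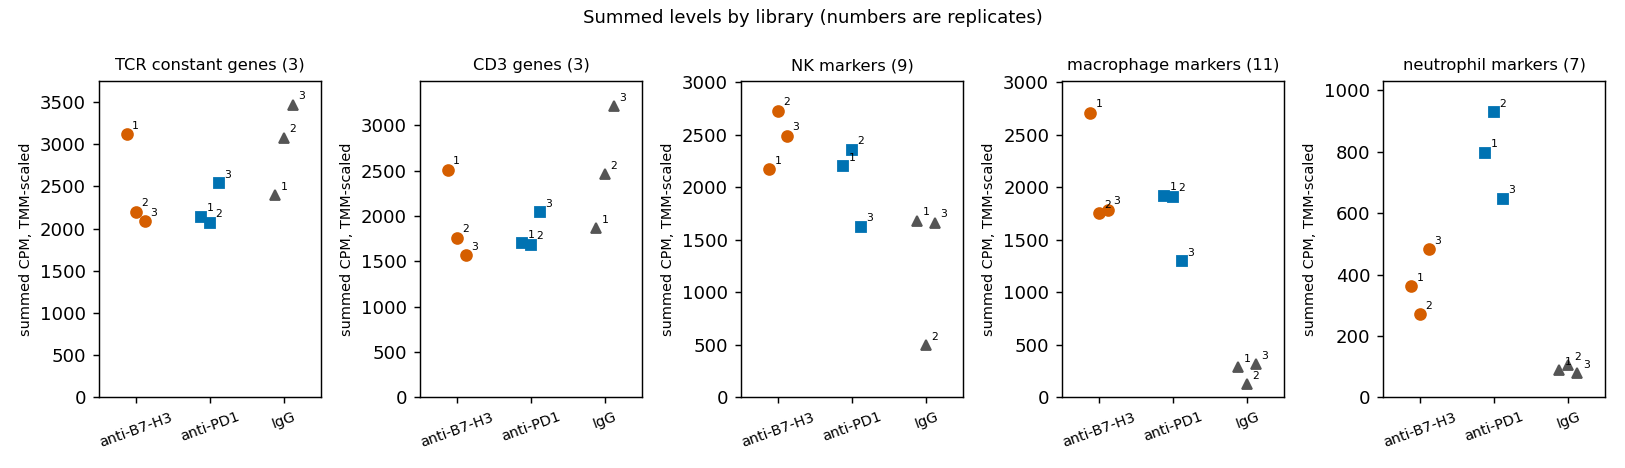
Summed CPM per library (points, with the replicate number) of the 3 TCR constant genes, the 3 CD3 genes and the markers of NK cells, macrophages and neutrophils, for anti-B7-H3, anti-PD1 and IgG. Macrophage and neutrophil sums are higher in all antibody libraries than in all IgG libraries, while CD3 and TCR sums overlap in these CPM values, though not in TPM.

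Without IgG 2 and anti-PD1 3, the libraries that stood apart, edgeR called 0 of 34 genes in each comparison, and the medians over the 34 were -0.28 with anti-B7-H3 against IgG, -0.37 with anti-PD1 against IgG and 0.09 between the antibodies. Leaving out IgG 3 changed the sign of several receptor genes. Without it, Cd3d, Trbc1, Trbc2, Cd247, Cd8b1 and Lat no longer had negative values with anti-B7-H3 against IgG, with Cd3d at 0.03, Trbc1 at 0.19 and Cd8b1 at 0.54. With other libraries left out the same genes moved the other way. Their lowest values were then -0.64 for Cd3d, -0.21 for Trbc1, -0.40 for Trbc2, -0.20 for Cd247, -0.62 for Cd8b1 and -0.58 for Lat.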

How the data were processed

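The authors deposited TPM values and estimated counts (expected counts, not whole numbers) of 58083 transcripts for each of 9 libraries, per the file headers. Which quantifier made them is not given in the sources used here. The submitters' processing notes name GRCm38 and FastQC 0.11.8. Per the labels' protocols, RNA that reached an integrity number of 7.0 went through SMART-Seq v4 amplification, ribosomal RNA depletion and Nextera XT. These kits do not mark strand, so reads of antisense or overlapping genes cannot be told apart. Of the listed lengths, 87.3% are multiples of 3, so they are coding lengths.

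The deposited estimated counts were added up per gene with the GENCODE M21 annotation. This matched 57409 transcripts and left 674, with 0.236% to 0.547% of the counts, unused. The sums were rounded to whole numbers and fitted with edgeR 4.0.16 (R 4.3.3), using TMM factors, filterByExpr, all 9 libraries, a mean per group and robust quasi-likelihood dispersions. P-values were adjusted over 13178 genes at a threshold of 0.05, and the fit was tested on simulated data. A floor of 3 counts lies at 0.0951 to 0.207 CPM, and PCR reads without molecular identifiers make such floors cover counting error only. Levels between genes are the deposited TPM values. Ratios used counts with a pseudocount of 0.5 and an exact two-sided permutation test.

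The 34 genes, the further lists and the named genes were chosen with earlier results of these data known. Library values are given for the constant, CD3 and zeta chains, the coreceptors, Lck, Zap70 and Lat and for the 4 genes with the smallest p in each comparison. The replicate numbers do not pair the samples in the labels. Other settings tried were DESeq2 1.42.0, limma-voom (limma 3.58.1), other factors, filters and gene tables, length-scaled counts, the 6 libraries compared, non-robust dispersions, a replicate block and each library left out. A setting without IgG 2 and anti-PD1 3 was added after seeing the data.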

Additional observations from a re-analysis of the deposited data

How the results depend on the processing

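Under 21 settings fixed with the tests and 1 chosen after seeing the data, edgeR, DESeq2 and limma-voom called none of the 34 genes, with 1 exception: without IgG 3, Themis passed with anti-PD1 against IgG (-1.20, edgeR adjusted p = 0.0174), and the count was 0 to 1 over the libraries left out. With 1 library left out, the median over the 34 genes ran from -0.35 (without anti-B7-H3 1) to -0.17 (without anti-B7-H3 3) with anti-B7-H3 against IgG and from -0.36 to -0.25 with anti-PD1 against IgG (-0.26 without IgG 2, -0.25 without IgG 3), and it was -0.37 in that last comparison without IgG 2 and anti-PD1 3 together. Between the antibodies it ran from -0.0053 to 0.090 with a library left out (0.090 without anti-PD1 3), was -0.0095 with DESeq2, and was 0.090 without IgG 2 and anti-PD1 3 together. The median of all genes was 0.16 with no filter for anti-B7-H3 against IgG and 0.12 between the antibodies, in place of 0.02 and 0.04. Counts over all genes changed more: 396, 652 and 15 with DESeq2, 2 between the antibodies with limma-voom with quality weights, 44 and 136 with the 6 libraries compared, and 59 to 144, 113 to 262 and 0 to 1 with a library left out, in place of 112, 229 and 0. Among them, anti-B7-H3 against IgG had 64 without anti-B7-H3 1, 60 without anti-B7-H3 2, 59 without anti-B7-H3 3 and 73 without anti-PD1 2, and anti-PD1 against IgG had 113 without anti-PD1 1 and 116 without anti-PD1 2. The cause was not tested. With the replicate number as a replicate block the counts were 64 and 127. Same-numbered libraries deviated together by correlations of -0.12 to 0.16. With 3 libraries a group, such correlations cannot tell whether same-numbered samples share more than a number. Of 54 fold changes of named members, 37 kept their sign in every setting and 17 did not, the largest of these at -0.34 (Lat with anti-PD1 against IgG). With 3 libraries a group, the median 95% interval of the 34 genes reached 0.53 on the log2 scale to either side before adjustment, and values beyond that were left uncalled.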
